A study of Mus musculus with 4 samples.

Results

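The Serpina genes on mouse chromosome 12 encode clade A serpins, secreted proteins that mostly block serine proteases and that hepatocytes release into plasma. Several copies of Serpina1 encode alpha-1 antitrypsin, the inhibitor of neutrophil elastase, where the human genome has a single gene, and the Serpina3 genes are an expanded family related to human alpha-1 antichymotrypsin. Serpina6 encodes corticosteroid-binding globulin, which carries glucocorticoids in blood. Serpina10 encodes the protein Z-dependent protease inhibitor of coagulation and Serpina12 encodes vaspin. Serpina4-ps1 is a pseudogene. The glucocorticoid receptor (GR) is a nuclear receptor that is activated by glucocorticoids and binds DNA at glucocorticoid response elements and beside other factors. E2A is the gene product of Tcf3, a basic helix-loop-helix protein with splice forms that include E47, and such proteins bind the E-Box CANNTG.

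The genes described here are 10 of the 28 Serpina genes that RefSeq lists on chromosome 12, namely Serpina1a, Serpina1b, Serpina1c, Serpina3k, Serpina3m, Serpina3n, Serpina4-ps1, Serpina6, Serpina10 and Serpina12. Apart from Serpina1c, which no deposited row names, they were chosen by the nearest-gene names of the called peaks themselves. Counts of peaks at these genes are therefore descriptions and carry no test. Peaks were taken when their deposited nearest gene was a member or when they met a window of 600000 bp of chromosome 12 (mm10) that reaches from the middle of Serpina1c to beyond Serpina3n. This gave 84 of the 17545 peaks of all samples.

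ChIP-Seq was performed for GR and for E2A in livers of male E47+/+ mice of the strain C57BL/6, fed chow, 10 to 16 weeks of age and collected at ZT 10, with 2 biological replicates of each ChIP and 4 samples in all. The labels state that the mice received no treatment, whereas a supplementary description of the same data calls the livers Dex-treated. Both E2A samples carry a description that names GR, and that of replicate 2 also names E47-/- mice. Title, antibody and genotype of both name E2A and E47+/+, and these were followed. The numbers of the GR replicates are those of the sample titles, and the file names carry the opposite numbers. The lists hold called intervals with no read count, height or summit, so the depth behind a peak is unknown and strength of binding was not measured. The study describes the E2A ChIP as made in the livers used for GR, so the samples of one ChIP are not independent of those of the other. Whole liver was used. Between 4 and 6 of 6 hepatocyte markers were the nearest gene of a peak in each sample, against 0 or 1 of 10 markers of other liver cells.

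The lists were of unequal length, and the study states that read pairs were downsampled to a larger number for E2A than for GR. GR replicate 1 had 4291 peaks, GR replicate 2 had 7334, E2A replicate 1 had 4028 and E2A replicate 2 had 1892. In the Serpina cluster, 18 peaks were called in GR replicate 1, 33 in GR replicate 2, 11 in E2A replicate 1 and 22 in E2A replicate 2. E2A replicate 2 thus had the shortest list and the second highest count in the cluster. As a share of its list, the cluster took 1.16% in E2A replicate 2 (95% Wilson interval 0.769 to 1.75%) and 0.273% in E2A replicate 1 (0.153 to 0.488%). For GR the shares were 0.419% in replicate 1 (0.266 to 0.662%) and 0.45% in replicate 2 (0.321 to 0.631%). These intervals cover counting error only. The map of called peaks shows that peaks lay over the Serpina1 copies, from Serpina11 to Serpina4-ps1 and around Serpina3k to Serpina3n, with a long stretch between the last 2 groups that held none.

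**Figure D1:**
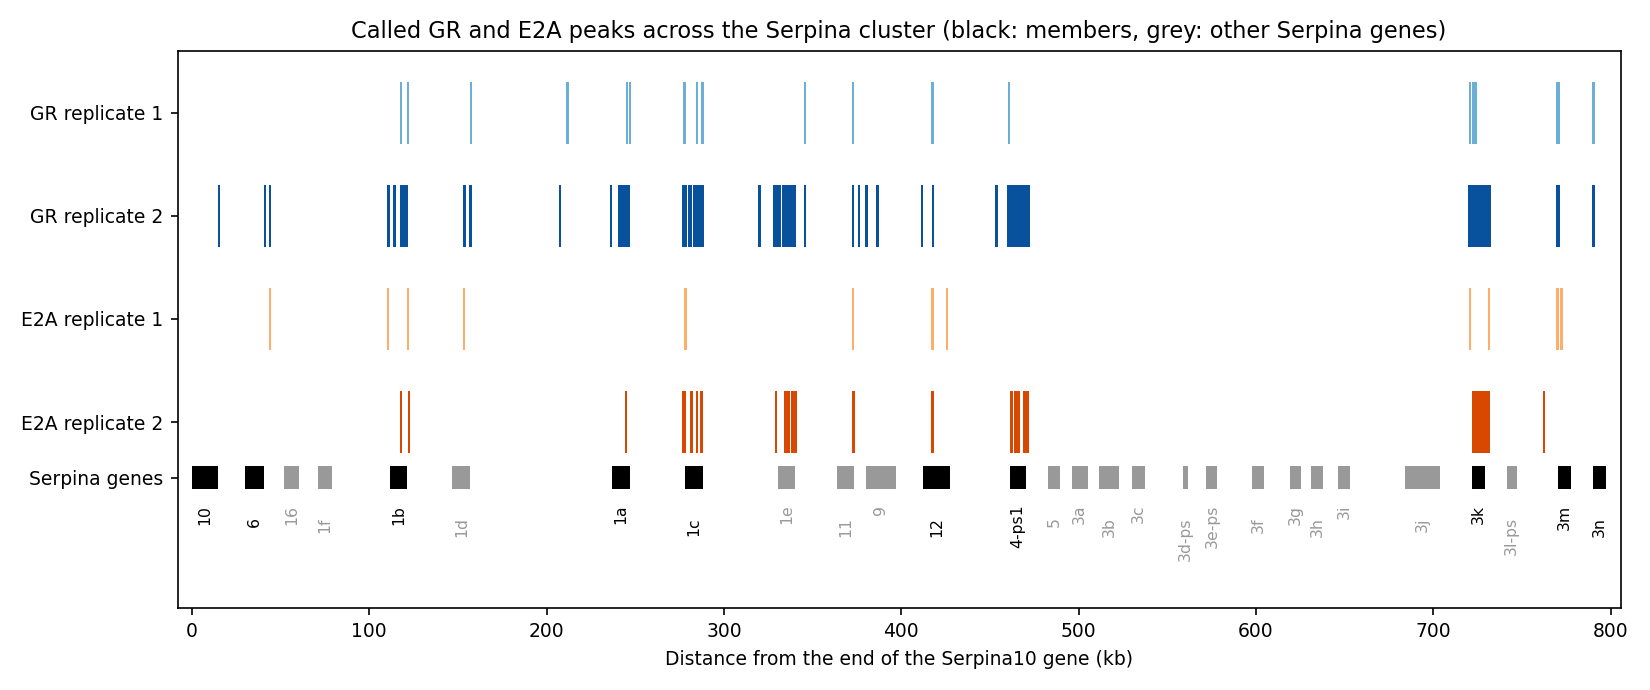
Called peaks in the 4 samples (rows) across the Serpina cluster, plotted by distance in kb from the 3' end of Serpina10, with gene bodies below (black for members, grey for other Serpina genes, named without the prefix Serpina). The narrowest peaks are drawn at a fixed minimum width so that they can be seen, and no sample has a peak in the stretch of 247083 bp between Serpina4-ps1 and Serpina3k.

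Peaks with at least 1 bp in common were joined into regions, which gave 34 GR regions of 8795 in the genome, 28 E2A regions of 4783, and 37 regions when both ChIPs were joined. Of these 37 regions, 5 held a peak of all 4 samples (13.5%, where 4.44% of all regions did). Another 14 were called in GR replicate 2 alone (37.8%, where 33% of all regions were) and 3 held E2A peaks alone (8.11%, where 18.6% of all regions did). A region called in all 4 samples need not hold a base common to all 4, because a wide peak can join separate narrow ones. Bases inside a peak of every sample were found at 3 of the 5 regions, among them a site upstream of Serpina1b and a site in Serpina12. The stretches common to all samples at these genes are printed here from the mm10 reference on the minus strand, which is the strand of both genes, because all 4 lists coincide there. The first spans chr12:103738292-103738425, from -236 to -103 bp relative to the Serpina1b start site, and capitals mark a match to the C/EBP motif TTGCNNAA.
Serpina1b upstream: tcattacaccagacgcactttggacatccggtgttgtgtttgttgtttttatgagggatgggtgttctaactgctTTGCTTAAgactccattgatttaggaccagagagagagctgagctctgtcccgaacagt
The other spans chr12:104033772-104033968 in intron 3 of Serpina12, 10475 to 10671 bp downstream of the start site. It held none of the 12 motifs searched, and capitals mark a run of CA repeats and a run of GA repeats, 46 and 48 bp long.
Serpina12 intron 3: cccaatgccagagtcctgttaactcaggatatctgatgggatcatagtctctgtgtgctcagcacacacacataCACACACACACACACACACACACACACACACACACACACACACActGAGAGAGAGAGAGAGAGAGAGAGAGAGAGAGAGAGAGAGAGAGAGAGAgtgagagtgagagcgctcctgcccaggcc

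The peaks were narrow and closely aligned at Serpina12, and less so at Serpina1b. In intron 3 of Serpina12 the 4 peaks were 296 bp wide in GR replicate 1, 295 bp in GR replicate 2, 287 bp in E2A replicate 1 and 272 bp in E2A replicate 2. The centres of the first and the last 2 of these lay within 2.5 bp of each other, 10610 to 10612 bp from the start site, while that of GR replicate 2 lay at 10524 bp. At Serpina1b the peaks were 549 bp wide in GR replicate 1, 535 bp in E2A replicate 1 and 257 bp in E2A replicate 2. Their centres lay at -20, 31 and -231 bp from the start site in the same order. The peaks of GR replicate 1 and E2A replicate 1 thus spanned the start site, and that of E2A replicate 2 lay upstream of it. A single peak of 4586 bp in GR replicate 2 covered most of these together with a second site in intron 1.

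Long runs of CA or GA repeats were not limited to Serpina12. A run of at least 20 bp of either repeat was present in 10 of the 37 cluster regions (27%) and in 402 of all 10755 regions (3.74%). Since wider regions hold more sequence, regions of at most 2000 bp were also counted, with 3 of 27 in the cluster (11.1%) and 342 of 10602 overall (3.23%). Over the whole genome the share was 13.2% among the 478 regions called in all 4 samples and 2.53% among the 6317 called in 1 sample. The 10 regions of the cluster included the promoter regions of Serpina1b, Serpina1c and Serpina1e, the gene of Serpina4-ps1 and the region in Serpina12. How reads that map into such repeats bear on the calls was not tested.

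The 5 tandem Serpina1 copies, Serpina1b, Serpina1d, Serpina1a, Serpina1c and Serpina1e, repeated one pattern of peaks to different degrees. Peaks lay at the start site, within intron 1 and just beyond the end of the gene. The intron 1 site was taken as the 297 bp of Serpina1b common to the peaks of both GR replicates and E2A replicate 2, chr12:103734132-103734428, which lie 3761 to 4057 bp downstream of the start site. Aligned to it, the other copies were identical at 290 bases in Serpina1d, 291 in Serpina1a, 290 in Serpina1c and 292 in Serpina1e. The central stretch is printed for all 5 copies on the minus strand, so that the likeness of sites with different calls can be seen. Capitals mark bases that differ from Serpina1b, and the Serpina1d copy is 1 base shorter.
Serpina1b, chr12:103734189-103734368: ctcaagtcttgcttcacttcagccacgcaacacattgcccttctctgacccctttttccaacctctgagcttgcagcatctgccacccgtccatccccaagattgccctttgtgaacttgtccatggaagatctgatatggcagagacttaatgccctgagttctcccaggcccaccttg
Serpina1d, chr12:103769614-103769792: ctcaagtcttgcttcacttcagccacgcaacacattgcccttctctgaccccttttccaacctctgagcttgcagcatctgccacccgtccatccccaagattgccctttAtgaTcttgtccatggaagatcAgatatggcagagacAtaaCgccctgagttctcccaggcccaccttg
Serpina1a, chr12:103859628-103859807: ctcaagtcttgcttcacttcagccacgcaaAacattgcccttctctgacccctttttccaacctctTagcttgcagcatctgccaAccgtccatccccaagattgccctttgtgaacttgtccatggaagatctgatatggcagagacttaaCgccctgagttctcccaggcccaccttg
Serpina1c, chr12:103900982-103901161: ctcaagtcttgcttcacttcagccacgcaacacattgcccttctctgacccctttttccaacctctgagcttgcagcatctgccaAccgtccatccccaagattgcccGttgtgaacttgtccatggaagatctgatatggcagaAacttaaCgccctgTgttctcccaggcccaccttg
Serpina1e, chr12:103952980-103953159: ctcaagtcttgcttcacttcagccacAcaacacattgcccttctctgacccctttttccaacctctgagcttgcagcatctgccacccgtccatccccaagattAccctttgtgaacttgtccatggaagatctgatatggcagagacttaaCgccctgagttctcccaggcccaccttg
The site lay in intron 1 of each gene in RefSeq, or in intron 2 of the transcripts of Serpina1a with 6 exons. All 5 printed copies kept the E-Box CATCTG, and none held a match to the GRE (AGAACA and TGTTCT 3 bases apart, with up to 2 mismatches).

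A copy was counted as called where a peak shared at least 1 bp with it. GR replicate 2 met all 5 copies of this intron 1 site, GR replicate 1 those of Serpina1b and Serpina1c, E2A replicate 1 that of Serpina1d and E2A replicate 2 those of Serpina1b, Serpina1c and Serpina1e. The copies called thus differed between samples although the sequence was at least 97.6% identical. The authors kept uniquely mapped read pairs. Of all 50 bp words in a gene body, the share that occurred again within the cluster was 38.5% for Serpina1b, 42.3% for Serpina1d, 53% for Serpina1a, 55.1% for Serpina1c and 39.6% for Serpina1e. For 100 bp words it ran from 12.8% in Serpina1b to 28.7% in Serpina1c. In Serpina6, Serpina11, Serpina12 and Serpina4-ps1 the share of repeated 50 bp words was at most 1.09%. Whether this bears on which copies were called was not tested, and calls at a single Serpina1 copy are given as uncertain.

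At the start sites, the 300 bp upstream of Serpina1b were between 92% and 94.3% identical to the other copies. A GR replicate 2 peak met all 5, and GR replicate 1 peaks met all but that of Serpina1e. E2A replicate 1 met it at Serpina1b, and E2A replicate 2 at Serpina1b and Serpina1e. The site beyond the gene end was 281 bp that begin 10939 bp from the start of Serpina1b. It was taken as the bases common to the GR replicate 2 and E2A replicate 1 peaks there. The calls of these 2 samples at Serpina1b thus follow from its definition. A GR replicate 2 peak met the site at 4 copies and a GR replicate 1 peak met it at Serpina1c. E2A replicate 1 met the Serpina1b copy and E2A replicate 2 the Serpina1c and Serpina1e copies. The E2A replicate 1 peak of 477 bp beyond the end of Serpina1c, chr12:103894296-103894772, lay outside the aligned copy. The plot of the 5 copies shows these 3 positions, with GR replicate 2 filling most of the space between them at Serpina1c and Serpina1e.

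**Figure D2:**
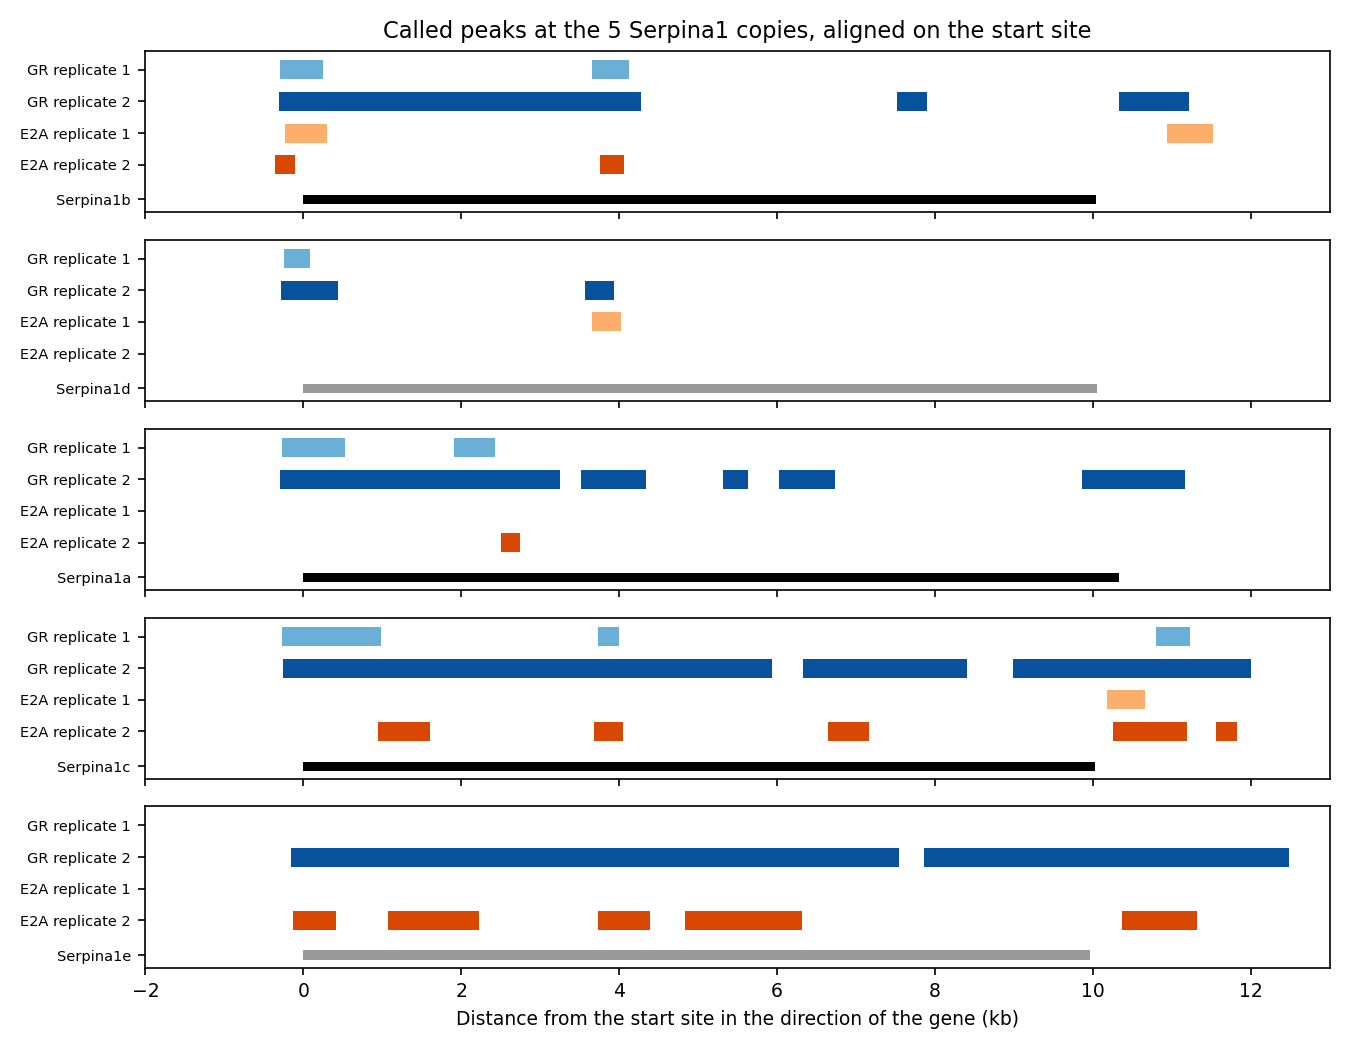
Called peaks at the 5 Serpina1 copies, each panel 1 gene, plotted by distance in kb from the start site in the direction of the gene, with 1 row for each sample and the gene body below (black for members, grey for the other copies). GR peaks sit at the start site of every copy in at least 1 replicate, peaks in intron 1 close to 4 kb recur in every copy, and E2A replicate 2 has its largest number of peaks at Serpina1c and Serpina1e.

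Serpina1c did not appear under its own name. No deposited row of any sample had it as nearest gene, and the peaks over its body, from 103894926 to 103904950, were deposited with Serpina1a. In GR replicate 1 a peak of 1257 bp lay over the Serpina1c start site, the widest of that sample in the cluster. In GR replicate 2 a peak of 6194 bp ran from the start site into the gene, and 2 more, of 2083 bp and 3014 bp, lay further along and beyond its end. E2A replicate 2 had 5 peaks at the locus, of 659, 363, 522, 938 and 268 bp, and none over the start site. E2A replicate 1 had 1 peak of 477 bp beyond the gene end. The window itself begins inside Serpina1c. The last peak before it, of 2083 bp, and the first inside it, of 6194 bp, both belong to GR replicate 2 and to this gene. On the other side the last peak inside was at Serpina3n and the next on the chromosome, at Clmn, began at 104837277.

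Of the Serpina3 members, Serpina3k and Serpina3m shared a second pattern. Each had a peak over its start site and another further upstream. The upstream peak of Serpina3m was 394 bp wide in GR replicate 1, 417 bp in GR replicate 2 and 276 bp in E2A replicate 1. That of Serpina3k was 647, 902 and 427 bp wide in the same 3 samples. E2A replicate 2 had no peak at either site. The stretch common to the 3 Serpina3m peaks is printed with its counterparts at Serpina3k and at Serpina3c, since the last of these had no peak in any sample. Serpina3m and Serpina3k are given on the plus strand and Serpina3c on the minus strand, following the genes. In the Serpina3m line capitals mark motif matches, and in the other lines they mark bases that differ from Serpina3m.
Serpina3m, chr12:104386049-104386324: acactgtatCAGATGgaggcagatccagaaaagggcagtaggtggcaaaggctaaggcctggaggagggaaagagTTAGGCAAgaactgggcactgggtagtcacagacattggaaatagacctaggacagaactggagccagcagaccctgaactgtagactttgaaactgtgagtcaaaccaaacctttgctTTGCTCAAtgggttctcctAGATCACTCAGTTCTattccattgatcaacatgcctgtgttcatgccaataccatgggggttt
Serpina3k, chr12:104337001-104337276: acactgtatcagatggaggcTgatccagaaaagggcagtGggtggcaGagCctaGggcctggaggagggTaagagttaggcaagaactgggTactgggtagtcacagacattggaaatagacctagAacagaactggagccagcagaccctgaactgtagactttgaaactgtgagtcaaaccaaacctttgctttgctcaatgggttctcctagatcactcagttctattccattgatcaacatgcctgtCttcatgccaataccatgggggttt
Serpina3c, chr12:104155862-104156135: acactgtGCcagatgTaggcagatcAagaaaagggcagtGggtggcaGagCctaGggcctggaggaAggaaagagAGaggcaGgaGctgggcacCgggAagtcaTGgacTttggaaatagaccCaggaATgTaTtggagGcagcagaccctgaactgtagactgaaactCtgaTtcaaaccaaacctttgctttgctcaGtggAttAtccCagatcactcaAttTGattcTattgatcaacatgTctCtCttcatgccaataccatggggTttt
The Serpina3k sequence was identical at 267 of 276 bases (96.7%) and that of Serpina3c at 236 (85.5%). Serpina3m and Serpina3k both held AGATCACTCAGTTCT, a GRE match with 2 mismatches, from -895 to -881 bp relative to the Serpina3m start site and from -1272 to -1258 bp relative to that of Serpina3k. They also held 2 C/EBP matches and 1 E-Box each. The printed Serpina3c stretch held no GRE or C/EBP match, and it held an HNF4 match (CAAAGTCCA) and an E-Box. A match is a description of letters and shows no binding.

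The start site of Serpina3m was covered by a peak of 503 bp in GR replicate 1 and of 585 bp in GR replicate 2, with centres 15 and 36 bp downstream of it, and by no E2A peak. E2A replicate 1 instead had a peak of 388 bp in the gene, 1416 bp from the start site, and E2A replicate 2 one of 322 bp centred at -8344 bp. Serpina3n, which is known to rise in the acute phase response, had its start site inside a peak of 459 bp in GR replicate 1 and of 402 bp in GR replicate 2. No E2A peak was called at Serpina3n. At Serpina3k the GR replicate 1 peak on the start site was 1064 bp wide. In GR replicate 2 a single peak of 11019 bp covered the gene from end to end, and in E2A replicate 2 a peak of 10155 bp did the same. The latter was the widest of all 1892 peaks of that sample. E2A replicate 1 had no peak over the gene body and 1 of 365 bp beyond its end.

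Serpina4-ps1 was covered in the same manner. GR replicate 2 had a peak of 11708 bp over the whole pseudogene, the 5th widest of its list, and E2A replicate 2 had 5 peaks from 408 to 3086 bp along it. GR replicate 1 had 1 peak of 394 bp, centred at -1104 bp from the start site. It met a further peak of GR replicate 2, of 623 bp and centred at -1204 bp. E2A replicate 1 had no peak at the pseudogene. Serpina6 and Serpina10 had narrow peaks. The Serpina6 start site lay inside a peak of 381 bp in GR replicate 2 only, and the Serpina10 start site inside a peak of 483 bp in GR replicate 2 only. Upstream of Serpina6, a GR replicate 2 peak of 273 bp, centred at -3033 bp from the start site, met an E2A replicate 1 peak of 338 bp. No GR replicate 1 or E2A replicate 2 peak was assigned to either gene. Serpina12 had, besides its peaks in intron 3, a peak of 501 bp in E2A replicate 1 alone, 2233 bp downstream of the start site, and none at the start site in any sample.

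A peak covered the start site of 6 of the 10 members in GR replicate 1, where 3.59% of all protein-coding genes had one, and of 9 in GR replicate 2, where 13.1% did. In E2A replicate 1 it did so at Serpina1b alone, where 4.72% of protein-coding genes had one, and in E2A replicate 2 at Serpina3k alone, where 1.94% did. With the promoter taken as 1000 bp upstream to 500 bp downstream of the start site, both GR replicates had a promoter peak at 7 members, where 4.93% of protein-coding genes did. Both E2A replicates had one at Serpina1b alone, where 2.2% did, and at least 1 E2A replicate at 4 members, where 7.86% did. The members were chosen by peaks in these lists, so nothing is read from their counts against those of all genes. Each GR count was higher than each E2A count, and with 2 samples a group the smallest p of an exact permutation test is 0.333. Among all regions, 46.3% were at a promoter by the deposited annotation, against 13 of 37 in the cluster (35.1%, Wilson interval 21.8 to 51.2%). For GR regions it was 13 of 34 (38.2%, 23.9 to 55%), where 50.4% of all were, and for E2A regions 5 of 28 (17.9%, 7.88 to 35.6%), where 39.1% of all were.

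By the deposited nearest gene, 9 of the 10 members had a GR peak in at least 1 replicate and 7 in both, where 23.3% and 9.13% of all protein-coding genes did. For E2A the counts were 7 and 5, where 13.7% and 4.58% of protein-coding genes did. Apart from Serpina1c, these are the values by which the members were chosen, and nothing is read from them. Using the nearest GENCODE start site to the peak centre in place of the deposited gene left 2 members with E2A in both replicates in place of 5. The other 18 Serpina genes on the chromosome had fewer calls than the members, which were chosen by their peaks. Among these 18 genes, 4 were the nearest gene of a GR peak in at least 1 replicate and 3 of an E2A peak. The shares of all protein-coding genes were 23.3% and 13.7%, as given above. In 14 of the 18 no peak was called over the gene, at the promoter or by assignment in any sample. The share of all genes without any such call was not counted. Of these, 11 lay side by side in the empty stretch from 104089416 to 104336498, namely Serpina5, Serpina3a, Serpina3b, Serpina3c, Serpina3d-ps, Serpina3e-ps, Serpina3f, Serpina3g, Serpina3h, Serpina3i and Serpina3j. The other 3 were Serpina16, Serpina1f and Serpina3l-ps. Serpina9, a serpin known from germinal centre B cells, had GR replicate 2 peaks only. A peak of 505 bp, deposited with Serpina11, crossed the end of the gene, and a peak of 262 bp lay within it. The last, of 321 bp, was centred at -14350 bp from the Serpina9 start site, just beyond the end of the Serpina12 gene.

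The width of the peaks set GR replicate 2 and E2A replicate 2 apart from the other samples. The median width in the cluster was 509 bp in GR replicate 1, 679 bp in GR replicate 2, 388 bp in E2A replicate 1 and 594 bp in E2A replicate 2. The medians of the whole lists were 372, 408, 378 and 349 bp. The widest cluster peak was 1257 bp in GR replicate 1 and 580 bp in E2A replicate 1, but 11708 bp in GR replicate 2 and 10155 bp in E2A replicate 2. The plot of widths shows this tail of wide peaks in the samples numbered 2 by title.

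**Figure D3:**
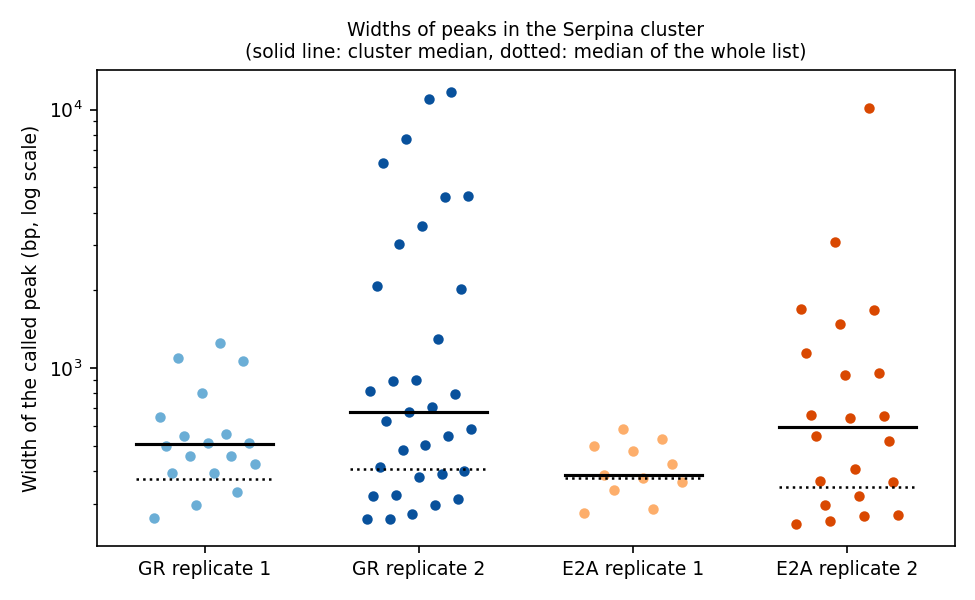
Width in bp on a log scale of every called peak in the Serpina cluster, by sample (1 point a peak, solid line the median in the cluster, dotted line the median of the whole list). GR replicate 2 reaches 11708 bp and E2A replicate 2 reaches 10155 bp, while GR replicate 1 stays at or under 1257 bp and E2A replicate 1 at or under 580 bp.

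The mean of the sample medians was 594 bp for GR and 491 bp for E2A, a difference of 103 bp that was smaller than the spread between replicates (exact two-sided permutation test over 4 samples, p = 0.667, with 0.333 the smallest p the design allows). Peaks of at least 2000 bp made up 10 of the 33 cluster peaks in GR replicate 2, where they were 1.9% of the list, and 2 of 22 in E2A replicate 2, where they were 1.32% of the list. No cluster peak of GR replicate 1 or E2A replicate 1 was that wide, and the shares of their lists were 0.489% and 0.472%.

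In terms of genes, peaks of GR replicate 2 covered at least 50% of the body of 4 members, Serpina1a (53.8%), Serpina1c (90.4%), Serpina4-ps1 and Serpina3k (100% each), and also 96.9% of Serpina1e. In E2A replicate 2 the same was true of Serpina4-ps1 (66.8%) and Serpina3k (100%). In GR replicate 1 the most covered member was Serpina3k with 16.3%, followed by Serpina1c with 12.4%. In E2A replicate 1 it was Serpina3m with 5.46%. Among all protein-coding genes the share covered to at least 50% was 0.0551% in GR replicate 1, 0.4% in GR replicate 2, 0.0459% in E2A replicate 1 and 0.0459% in E2A replicate 2. Of genes at least 7000 bp long, 22 reached it in GR replicate 2, among them the plasma protein genes Alb, Ttr, Fga, Fgb and Fgg, and 4 in E2A replicate 2, among them Alb. The plot of gene body cover shows the order of the members in each sample. Wide calls over Serpina4-ps1 and Serpina3k were thus made in the replicates numbered 2 by title in both ChIPs. The file names give the GR replicates the opposite numbers, so the shared number carries no weight. The sources do not say whether these samples share a liver. The relation of the wide calls to the DNA or library of those samples was not tested.

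**Figure D4:**
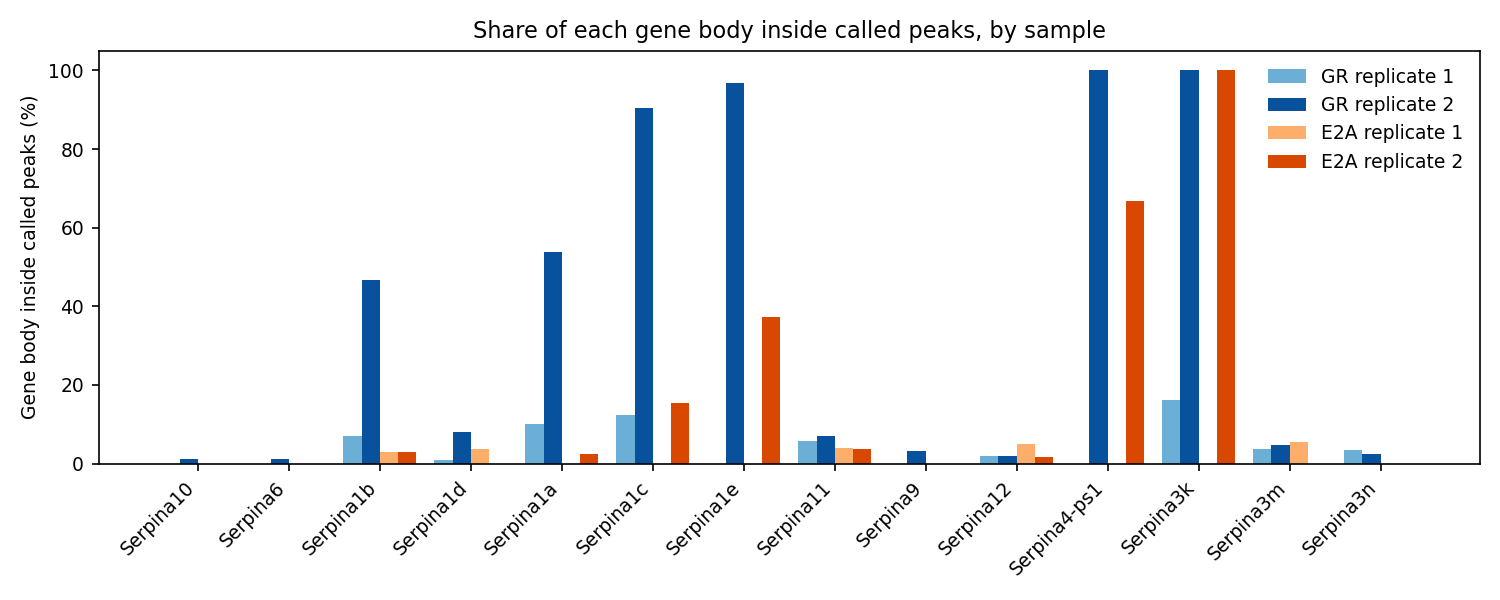
Share in percent of each Serpina gene body that lay inside called peaks, with 1 bar for each sample and genes in chromosomal order (genes with no covered base in any sample are left out). Bars reach 100% at Serpina4-ps1 in GR replicate 2 and at Serpina3k in GR replicate 2 and E2A replicate 2, whereas no bar of GR replicate 1 is above 16.3% and none of E2A replicate 1 above 5.46%.

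To compare the position of GR and E2A peaks, regions of both ChIPs were overlapped. Of the 34 GR regions in the cluster, 15 met an E2A region (44.1%, Wilson interval 28.9 to 60.5%), where 30.7% of all GR regions did. Of the 28 E2A regions, 25 met a GR region (89.3%, 72.8 to 96.3%), where 58.1% of all E2A regions did. The latter share rested on GR replicate 2. Without that sample 10 of 28 E2A regions met a GR region (35.7%, 20.7 to 54.2%), where 35.1% of all E2A regions did. With peaks of at most 2000 bp alone it was 11 of 27 (40.7%), against 55.8% of all. The share of GR regions that met E2A depended on the samples too. Without E2A replicate 2 it was 9 of 34 (26.5%), where 26.7% of all GR regions did. Without E2A replicate 1 it was 32.4% against 13%, without GR replicate 1 45.5% against 31.4%, and without GR replicate 2 61.1% against 39.4%. Regions called in both replicates were 13 of 34 for GR (38.2%), where 31.1% of all GR regions were, and 5 of 28 for E2A (17.9%), where 23.4% of all E2A regions were.

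Within shared regions, 44 pairs of overlapping GR and E2A peaks had centres a median of 414 bp apart, with a range from 2 to 4754 bp. The 20 pairs in which both peaks were narrower than 2000 bp had a median of 62.2 bp. By sample the median was 51 bp over the 5 pairs of GR replicate 1 with E2A replicate 1, 86 bp over 9 pairs of GR replicate 2 with E2A replicate 1, 211 bp over 9 pairs of GR replicate 1 with E2A replicate 2 and 1201 bp over 21 pairs of GR replicate 2 with E2A replicate 2. The distance thus followed the width of the calls. Pairs of 1 region share peaks and are not independent.

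The 300 bp at the centre of each region were searched on both strands for consensus motifs. The GRE (with up to 2 mismatches) was found in 2 of 37 cluster regions (5.41%) and in 4.51% of all regions, and the DR1 in 10.8% and 7.92%. The HNF1 match (GTTAAT and ATTAAC 1 base apart, with up to 2 mismatches) was found in 1 cluster region (2.7%), at Serpina10, and in 2.63% of all regions. The shares for C/EBP were 13.5% and 16.5%, for FOX 5.41% and 6.18%, for HNF4 2.7% and 1.66%, and for STAT5 (TTCNNNGAA) 18.9% and 9.72%. The HNF6 motif ATCAATC was found in 0 of 37 cluster regions and 1.85% of all. At least 1 E-Box CANNTG was present in 32 of 37 cluster regions (86.5%, Wilson interval 72 to 94.1%) and in 70.6% of all, and away from promoters in 21 of 24 (87.5%, 69 to 95.7%) and in 81.5%. With 200 bp at the centre it was 24 of 37 (64.9%, 48.8 to 78.2%) in the cluster and 56.6% in all, so that the interval held the value of all regions. Of its forms, CAGCTG and CAGGTG were each found in 13.5% of cluster regions, against 17.1% and 19.7% of all, and CACGTG in 2.7% against 8%. With 200 bp CAGGTG was found in 0 of 37, and its share of all regions in 200 bp was not counted. All shares over the 37 regions in 300 bp except that of the E-Box held the value of all regions inside their interval. Regions on the Serpina1 and Serpina3 copies hold similar sequence and are not independent, which the intervals do not allow for. With 12 motifs searched, nothing is read from this exception. Median GC content was 49% in the cluster windows and 54.7% in all. In wide regions the centre need not be the occupied site, since the lists give no summit.

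The window of 600000 bp held the centres of 19 GR regions and 20 E2A regions. Among 4532 windows of that length laid along the genome, 16 held more GR regions and 3 held more E2A regions, and the median window held 0 of either. The window lies at genes chosen by the peaks of these lists, so nothing is read from its rank. E2A replicate 2 had 16 peaks that met the window and E2A replicate 1 had 7.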

How the data were processed

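GR and E2A ChIP-Seq samples of wild-type livers were grouped by title, 2 for each ChIP. According to the methods and the submitters' processing notes, BWA 0.7.13 aligned the reads (mm10), Picard removed duplicates, read pairs that mapped uniquely were kept and downsampled within each ChIP, and MACS2 called peaks sample by sample. The number kept was larger for E2A than for GR, so counts and widths of the ChIPs were compared at unlike depth. The control, threshold and annotation tool are not given in the sources used here. The deposited values are interval bounds, widths and distances in bp, with nearest gene and feature, and none is normalized. Members, lists and sequences shown were chosen with earlier results of these data known. All 10 members, every other Serpina gene of the chromosome, and regions that were called in all 4 samples, at a member's promoter or widest or narrowest were eligible to be named. Peaks sharing at least 1 bp were merged. Positions were read from RefSeq GRCm38.p6, in which 92.7% of 6695 deposited gene models had a bound within 1000 bp. Local alignments scored 2 for a match, -3 for a mismatch, -7 to open and -1 to extend a gap. Python 3.11.15, pandas, scipy, pysam and Biopython were used, and the code was tested on simulated data. One site called in all samples is not reported here.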

Additional observations from a re-analysis of the deposited data

How the results depend on the processing

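With 2 samples in each ChIP, lists of unequal length and no read counts, differences between replicates in peak height or mappability were not measured, and the lists limit every value to called or not called. Of 101 alternatives for the main results, 81 kept a count within 1.5 times, a share inside its interval, the width difference in its direction or the centre distance within 547 bp, which is 1 SD of the 4 sample-pair medians. Counting only peaks that met the window gave 19 peaks in GR replicate 2 and 7 in E2A replicate 1, and 22 merged regions, 19 of them GR. Taking centres within 250 bp as shared, 20.6% of GR regions in the cluster met E2A, below the 25.4% of all GR regions. For E2A regions it was 25%, below the 46.7% of all E2A regions. With overlap of 1 bp both cluster shares had been above those of all regions. With peaks of at most 2000 bp 40.7% of E2A regions met GR, and among the 5 called in both replicates 100% did. Promoter regions were 69.2% of the regions called in both replicates of a ChIP. Nearest GENCODE start sites left 2 members with E2A in both replicates. The GRE was found in 18.5% of whole regions of at most 2000 bp, in 0% with 1 mismatch and in 24.3% with 3. The cause of these shifts was not tested. Shares of all regions were not counted for calls in both replicates or for the changed GRE searches. The 100%, 69.2%, 18.5%, 0% and 24.3% therefore cannot be set against the shares of all regions given above.

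Leaving out 1 replicate at a time moved the merged regions from 18 without GR replicate 2 to 33 for GR, from 11 without E2A replicate 2 to 22 for E2A and from 35 to 36 for both ChIPs joined. The share of GR regions that met E2A ranged from 26.5 to 61.1%, that of E2A regions that met GR from 35.7 to 95.5%, that at a promoter from 31.4 to 37.1% and that with a GRE from 2.86 to 5.71%. The median centre distance ranged from 56.8 bp without GR replicate 2 to 974 bp without E2A replicate 1, with 76 bp without E2A replicate 2, and the width difference from -0.5 bp without E2A replicate 1 to 206 bp without E2A replicate 2, with 17.8 bp without GR replicate 2. The width difference was 1400 bp in regions called in all 4 samples (exact permutation test, p = 0.333) and 34.2 bp with peaks of at most 2000 bp (p = 1, exact). The share called in both replicates could not be given for a ChIP with 1 replicate left out. With a replicate block, the difference in median width was again 103 bp (exact sign-flip test, p = 0.5, the smallest it allows). The numbers were not treated as pairs, since the sources name shared livers for both ChIPs but do not say which numbers share one. Across 6521 genes the differences between replicates 2 and 1 in covered bp had a correlation of 0.40 between the ChIPs, and over 9 members 0.74, which are over genes and not over samples. Both the block and these correlations use the title numbers, and the GR file names carry the opposite ones.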
